A study of Caenorhabditis elegans with 8 samples.

Results

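The miRNA levels of dystrophin-mutant worms of the strain LS292 were set against those of wild-type worms of the strain N2 (Bristol) in 4 matched conditions. All 8 arrays of the series entered the comparison, 4 of LS292 and 4 of N2, and each LS292 array was paired with the N2 array of its condition. LS292 carries the dys-1(cx18) I allele, and the labels name no other allele in either strain. A miRNA was counted as detected when the median of its 4 spots reached an intensity of 50 above local background on 2 or more of the 8 arrays, which 20 of the 156 named Caenorhabditis elegans miRNAs did. The intensity is the brightness of a spot on the scanner's own scale, with no fixed unit.

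The worms of both strains were loaded as dauer larvae and flown for 16.5 days at 23 °C on the Shenzhou-8 spacecraft. The static flight slot gave microgravity and a radiation dose of 1.92 mGy, and the centrifuge slot gave 1g and 2.27 mGy. Flown worms were collected 7 h after landing. Ground controls stayed in a static slot of the same hardware for 16.5 days at 23 °C with collection 7 h after the stop, and a further control of each strain was not transported, for which the labels give no dose, duration, temperature or delay.

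Dystrophin is a long protein that ties the actin cytoskeleton to a complex of proteins in the muscle membrane, and its loss in humans leads to muscular dystrophy. In the worm it is encoded by dys-1, and dys-1 mutants are known for hyperactive movement with exaggerated bending of the head. miRNAs are short RNAs that pair with messenger RNAs through their 5′ seed and lower the amount of protein made. The array carried no probe for the dys-1 messenger, so the genotype could not be checked on these samples. RNA came from whole worms, so fewer cells of a type and less RNA per cell cannot be told apart. Each strain is a single line with a single allele, and each strain and condition had 1 array. The p-values of the strain comparison rest on how far the strain difference varied between conditions. A strain difference particular to some conditions therefore counts as error. With no replicate cultures within a condition, the spread among arrays and that among worm cultures cannot be told apart.

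The brightness of the probes without a name differed between the strains, in opposite directions in flight and in the controls. Of the 2145 probe identifiers without a name, 158 reached 50 on all 8 arrays, and these served as one measure of how bright an array was. Their median log2 ratio of LS292 over N2 was 0.57 in static flight and 0.20 in the 1g centrifuge, against -0.38 on the ground and -0.22 without transport. By these probes LS292 was the brighter in both flight pairs and the dimmer in both control pairs. Other measures differed from this. The authors' constants gave log2 ratios of -0.025, 0.24, -0.25 and 0.45 in the same order, and the 5 named miRNAs bright on every array gave medians of 0.55, 0.24, 0.05 and -0.06. On each array the constant equalled the median intensity of those 5 miRNAs, so both measures rest on the same miRNAs. The part of array brightness in each result below was not tested. On the N2 static array 24.4% of spots lay more than 50 below their local background, against 3.40% to 10.9% on the other arrays.

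LS292 arrays held fewer detected miRNAs than N2 arrays in 3 of 4 conditions. The number of named miRNAs at 50 or more was 15 on the LS292 and 11 on the N2 array in static flight, 13 and 19 in the centrifuge, 12 and 17 on the ground, and 15 and 19 without transport. The means were 13.75 and 16.5, a difference of -2.75 ± 4.57 (SD of the 4 pair differences), and an exact two-sided permutation test that swapped the strains within conditions gave p = 0.375. With 4 pairs there are 16 arrangements, and the smallest p that this test can give is 0.125.

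**Figure D1:**
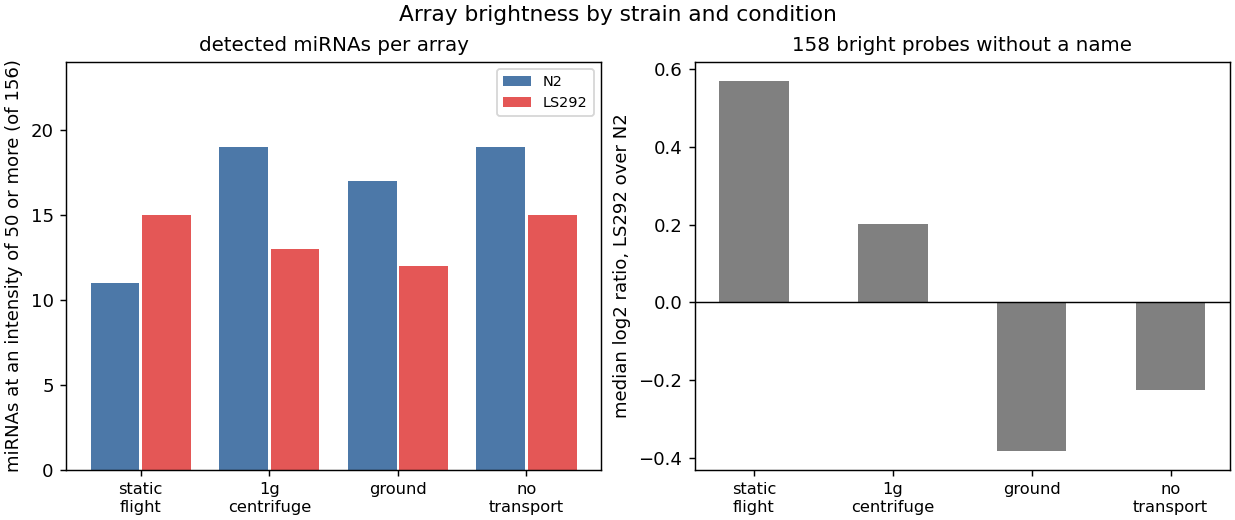
Left, the number of the 156 named miRNAs at an intensity of 50 or more on each array, with N2 in blue and LS292 in red. Right, the median log2 ratio of LS292 over N2 for the 158 unnamed probes at 50 or more on every array, which was above 0 in both flight conditions and below 0 in both controls, while LS292 had the higher number of detected miRNAs in static flight alone.

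Of the 20 detected miRNAs, 18 reached 50 on at least 1 array of each strain. The exceptions were miR-795 and miR-796, which reached it on N2 arrays alone and passed the filter through that strain, and no miRNA did so on LS292 arrays alone. A further 10 named miRNAs reached 50 on a single array, 8 of them on an N2 and 2 on an LS292 array, and 126 reached it on none. Within a condition, 5 miRNAs were at 50 or more in LS292 alone and 1 in N2 alone in static flight. The same counts were 0 and 6 in the centrifuge, 1 and 2 on the ground, and 3 and 5 without transport.

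No miRNA was called different between the strains. The limma fit with condition and strain as terms, on log2 values after quantile normalization, called 0 of 20 miRNAs (0%) at the adjusted threshold of 0.05, and the unadjusted p fell below 0.05 for 0 of them. The lowest adjusted p was 0.901. The fitted differences of LS292 minus N2 ran from -0.25 to 0.33 log2 with a median of -0.018, and 7 were positive and 13 negative. The 95% intervals reached 0.19 to 0.53 log2 to either side of the estimate (median 0.25), so a difference inside that span was not detectable on this scale. The scale is a narrow one. After normalization the values of the 20 miRNAs lay between 7.25 and 9.08 log2, while their deposited medians ran from -83 to 662.5. Its log2 units are therefore not folds of the deposited intensities, and the intervals set no bound on such folds.

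Of the variation of a miRNA over the 8 normalized values, condition took a median share of 46.2%, strain 7.69% and the residual 44.2%. Condition has 3 degrees of freedom here and strain 1. The share of strain was above that of condition for 4 of the 20 miRNAs. On the normalized scale 0 of 20 miRNAs differed with the same sign in all 4 conditions, 11 had one sign in 3 conditions and 5 were split 2 to 2.

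**Figure D2:**
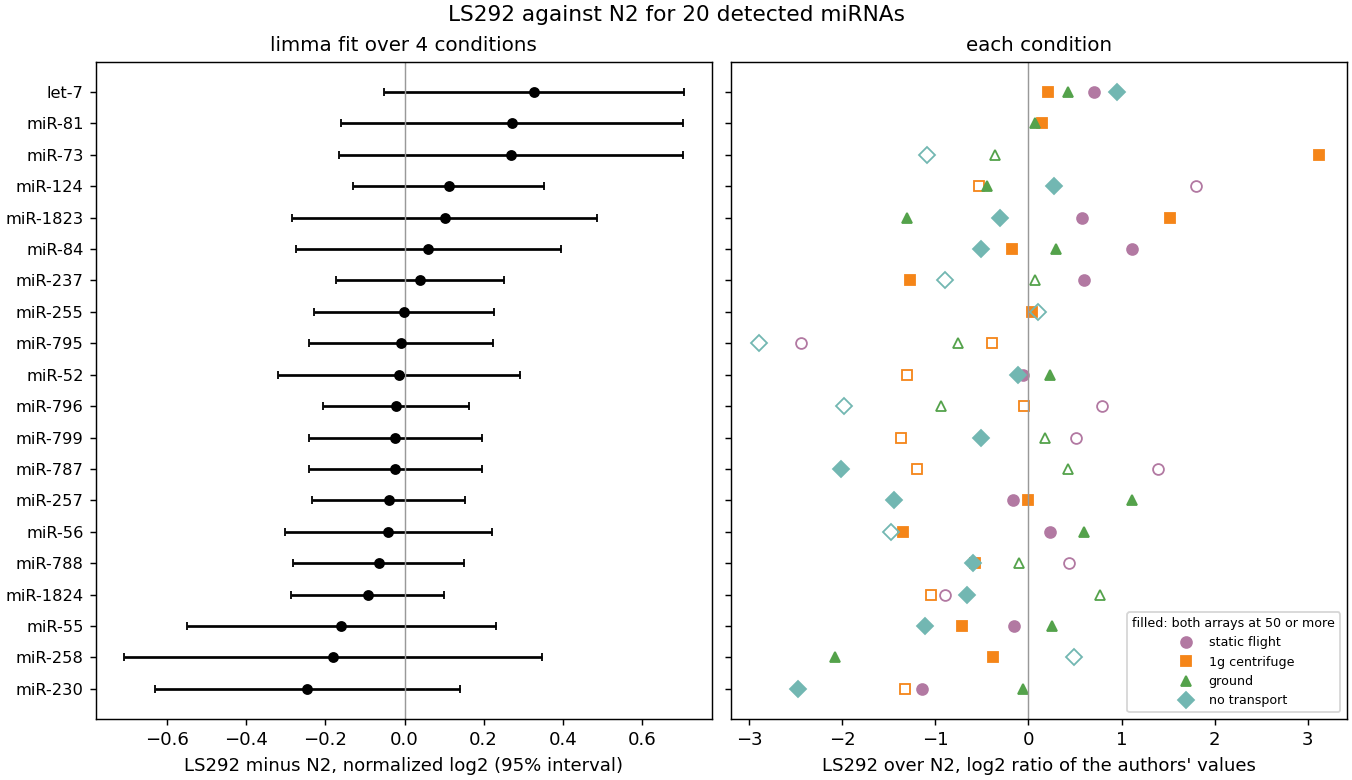
Left, the fitted LS292 minus N2 difference of the 20 detected miRNAs on the normalized log2 scale with 95% intervals, every one of which spans 0. Right, the log2 ratio of LS292 over N2 in each condition from the authors' normalized values, filled where both arrays reached 50. The 4 conditions lie on both sides of 0 for most miRNAs, and let-7 lies above 0 and miR-230 and miR-795 below 0 in all 4. No point of miR-795 is filled.

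The let-7 miRNA, which times the larval to adult transition in the worm, was the one with the largest fitted difference towards LS292. Its median intensity was 548.5 in LS292 and 343 in N2 in static flight, 655 and 479 in the centrifuge, 413.5 and 367 on the ground, and 338 and 128 without transport. LS292 was the higher in each of the 4 pairs, while the ranges of the strains overlapped across conditions. The mean was 488.75 ± 140.9 in LS292 and 329.25 ± 146.7 in N2 (SD, n = 4 each).

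The mean pair difference of let-7 was 159.5 ± 76.8 (SD, n = 4), with an exact two-sided permutation p of 0.125, the smallest the design allows and the one that any miRNA with a single sign in all 4 pairs receives. Quantile normalization, which replaces each value by the mean of its rank, gave let-7 the same rank in both strains in both flight conditions. The normalized differences were 0 in static flight, 0 in the centrifuge, 0.58 on the ground and 0.73 without transport. They rest on the mean of the 4 spots. On the ground the lowest N2 spot lay at -1789 and the others at 243 to 826, while the lowest LS292 spot lay at -108. The log2 ratio of the ground medians was 0.17. The part of that N2 spot in the normalized value was not tested. The fitted difference was 0.33 log2 (SE 0.15, 95% interval -0.05 to 0.71, limma adjusted p = 0.901). When arrays were instead scaled to the median intensity of the 158 bright unnamed probes, the static flight difference of let-7 was -0.15 log2. The single direction of let-7 did not hold on that scale. In static flight that median was 486.75 in LS292 and 275 in N2, a larger shift than the probes' median log2 ratio of 0.57. Scaling by that ratio was not run.

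The miRNA with the largest fitted difference towards N2 was miR-230. Its median intensity was 88.5 in LS292 and 199 in N2 in static flight, 44.5 and 94.5 in the centrifuge, 137.5 and 170.5 on the ground, and 51.5 and 209 without transport. LS292 was the lower in each pair, and LS292 on the ground was above N2 in the centrifuge, so the strains overlapped across conditions. The means were 80.5 ± 42.6 and 168.25 ± 51.8 (SD, n = 4 each).

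The mean pair difference of miR-230 was -87.75 ± 57.2 (SD, n = 4; exact permutation p = 0.125). The fitted difference was -0.25 log2 (SE 0.16, 95% interval -0.63 to 0.14, limma adjusted p = 0.901). Here the ground pair went the other way after normalization, at 0.29 log2, against -0.60 in static flight, -0.21 in the centrifuge and -0.47 without transport. On the ground the lowest N2 spot lay at -548 and the others at 165 to 265, while the lowest LS292 spot lay at -130. The part of such spots was not tested. In static flight and without transport all 4 LS292 spots of miR-230 lay below all 4 N2 spots.

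By the deposited spot medians, 1 of the 20 detected miRNAs was higher in LS292 in all 4 conditions (5%, let-7) and 2 were lower in all 4 (10%, miR-230 and miR-795). Since miR-795 passed the filter through N2 arrays alone, its direction was in part fixed by the filter, and nothing is read from the 10%. Among the 392 unnamed probes past the same filter, 2.55% were higher and 1.28% lower in all 4. The remaining one of these, miR-795, belongs to the let-7 family. Its medians were 15.5 in LS292 and 85.5 in N2 in static flight, 9 and 10 in the centrifuge, 17 and 34 on the ground, and 10.5 and 57 without transport. All LS292 values and 2 of the 4 N2 values lay under the detection minimum of 50. The means were 13 ± 3.85 in LS292 and 46.6 ± 32.2 in N2 (SD, n = 4 each). After normalization the centrifuge pair went the other way, at 0.24 log2, and the fitted difference was -0.0098 log2 (SE 0.09, 95% interval -0.24 to 0.22, limma adjusted p = 0.970).

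**Figure D3:**
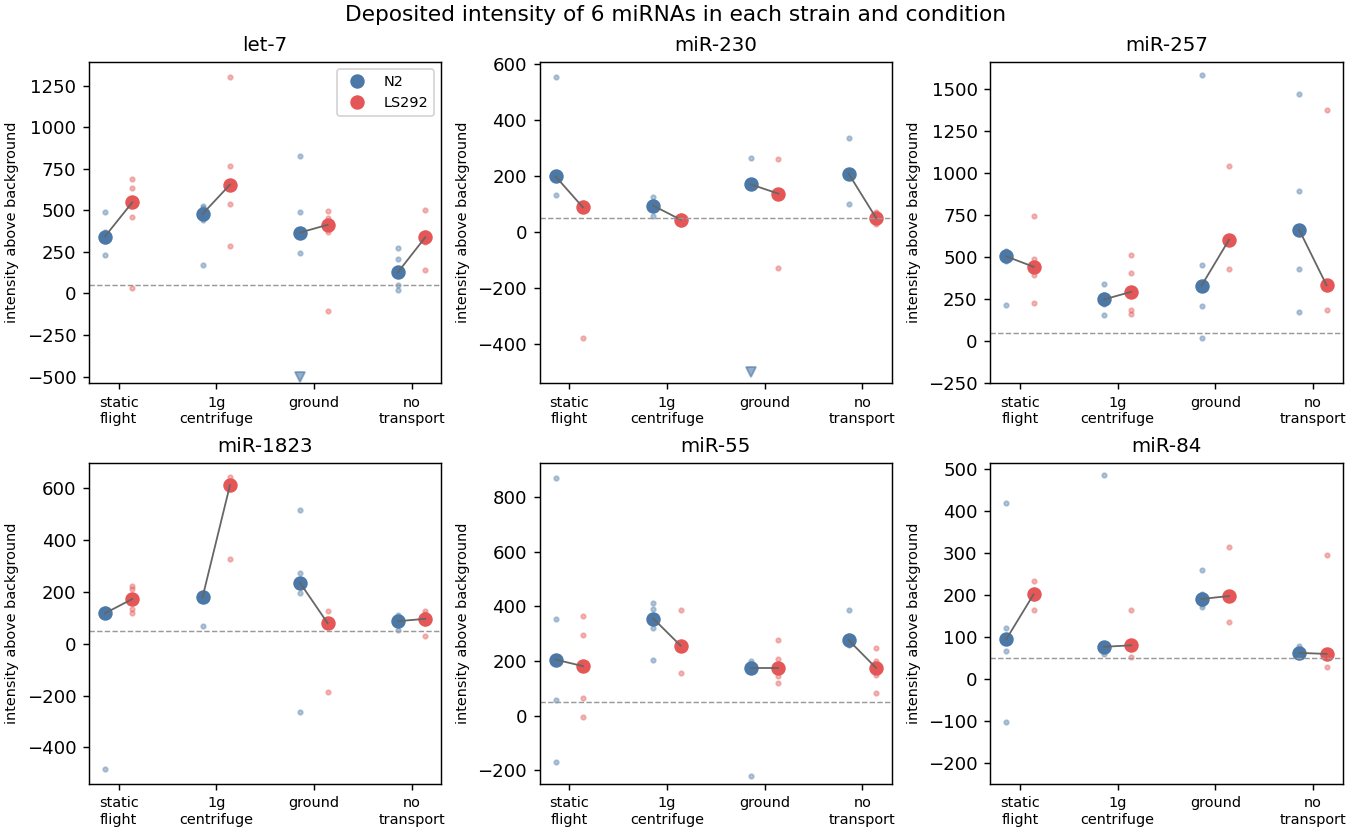
Deposited intensity above background of 6 miRNAs in each condition, with N2 in blue and LS292 in red. Large points are medians of the 4 spots, small points single spots, triangles spots below -500 drawn at -500, and the dashed line the minimum of 50. The LS292 medians of let-7 lie above and those of miR-230 below the N2 medians in every condition, while miR-257, miR-1823 and miR-84 change sides between conditions.

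Besides let-7, the miRNAs at 50 or more on every array were miR-1823, miR-257, miR-55 and miR-84. The medians of miR-1823 were 173 in LS292 and 118 in N2 in static flight, 612 and 180.5 in the centrifuge, 80 and 234.5 on the ground, and 96.5 and 87.5 without transport. LS292 was far the higher in the centrifuge, where none of its 4 spots overlapped those of N2, and the lower on the ground. The fitted difference was 0.10 log2 (SE 0.16, 95% interval -0.28 to 0.49, limma adjusted p = 0.947), and -0.011 log2 without the static flight pair.

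The medians of miR-257 were 443 in LS292 and 505 in N2 in static flight, 294 and 248.5 in the centrifuge, 603 and 331.5 on the ground, and 333 and 662.5 without transport. Each strain was the higher in 2 of the 4 conditions. The fitted difference was -0.04 log2 (SE 0.08, 95% interval -0.23 to 0.15, limma adjusted p = 0.947). Its normalized value was the same, 9.08, on 6 of the 8 arrays. Its normalized differences in static flight, on the ground and without transport were thus 0 by shared rank, whatever the intensities. The small estimate and narrow interval do not show equal levels.

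The medians of miR-55, of the miR-51 family, were 181 in LS292 and 205 in N2 in static flight, 256 and 355.5 in the centrifuge, 176 in both strains on the ground, and 175 and 276.5 without transport. LS292 was lower in 3 conditions and equal on the ground, and without transport its 4 spots lay below all 4 N2 spots. The fitted difference was -0.16 log2 (SE 0.16, 95% interval -0.55 to 0.23, limma adjusted p = 0.947).

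The medians of miR-84, a let-7 family member that acts with let-7 in late larval timing, were 201.5 in LS292 and 94.5 in N2 in static flight and 80 and 76.5 in the centrifuge. On the ground they were 197.5 and 190.5, and without transport 59.5 and 62. Outside static flight the strains lay within 7 intensity units of each other. The fitted difference was 0.06 log2 (SE 0.14, 95% interval -0.28 to 0.40, limma adjusted p = 0.947). It was -0.018 log2 without the static flight pair and -0.027 without the no-transport pair.

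The next largest fitted differences were those of miR-73, miR-81 and miR-258. The medians of miR-73, of the miR-72 family, were 10 in LS292 and -71.5 in N2 in static flight, 554.5 and 54 in the centrifuge, 18 and 27.5 on the ground, and 32 and 50 without transport. Only the LS292 centrifuge array stood high, at a normalized difference of 0.94 log2 there, and the other differences lay between -0.02 and 0.17. The LS292 centrifuge spots of miR-73 were widely spread, from 90 to 1804, and overlapped those of N2, at 27 to 92. The fit gave 0.27 log2 (SE 0.18, 95% interval -0.17 to 0.70, limma adjusted p = 0.901), and 0.05 log2 without the centrifuge pair.

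The medians of miR-81, a miR-58 family miRNA, were -28 in LS292 and 28.5 in N2 in static flight, 242.5 and 185 in the centrifuge, 133.5 and 151.5 on the ground, and 144 and -24 without transport. It was above the minimum in both strains in the centrifuge and on the ground alone. The normalized differences, from the mean of the 4 spots, were -0.34 log2 in static flight, 0.23 in the centrifuge, 0.51 on the ground and 0.69 without transport, so the ground pair differed in sign from its medians. The fit gave 0.27 log2 (SE 0.18, 95% interval -0.16 to 0.70, limma adjusted p = 0.901).

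The medians of miR-258 were 107 in LS292 and -15.5 in N2 in static flight, 155.5 and 171.5 in the centrifuge, 72 and 360.5 on the ground, and 89 and 46.5 without transport. The N2 ground array was the highest of the 8. The fit gave -0.18 log2 (SE 0.22, 95% interval -0.71 to 0.35, limma adjusted p = 0.947), and without the ground pair it turned to 0.09 log2.

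The other detected miRNAs each fell under 50 on at least 1 array, and their medians are given as deposited, with no scaling between arrays. For miR-124, which in worms and other animals marks neurons, the medians were 142 in LS292 and 41.5 in N2 in static flight, 44.5 and 54.5 in the centrifuge, 59 and 95.5 on the ground, and 84.5 and 51 without transport. For miR-787 they were 128 and 49.5, 42 and 81.5, 56 and 49.5, and 77.5 and 228.5 in the same order. Both were higher in LS292 in static flight, with no overlap of spots, and lower in the centrifuge.

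The medians of miR-788 were 56 in LS292 and 42 in N2 in static flight, 57.5 and 72.5 in the centrifuge, 18 and 23 on the ground, and 137 and 151 without transport. Those of miR-799 were 55.5 and 39.5, 33 and 72, 32.5 and 34, and 111.5 and 116. Both miRNAs were brightest without transport in either strain, and LS292 was the lower of the pair in all conditions but static flight.

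The medians of miR-56, also of the miR-51 family, were 94.5 in LS292 and 82 in N2 in static flight, 52 and 111.5 in the centrifuge, 67 and 52.5 on the ground, and 46.5 and 94.5 without transport. The genes of miR-55 and miR-56 are neighbours in the RefSeq gene table, with 0 genes starting between them. Those of miR-52, another member of that family, were 79.5 and 84.5, 36.5 and 76.5, 53.5 and 54, and 86 and 68. By these medians all 3 were lower in LS292 in the centrifuge, and they went different ways in the other conditions. After normalization the centrifuge differences were -0.58 log2 for miR-55 and -0.43 for miR-52, but 0.15 for miR-56. The lowest N2 centrifuge spot of miR-56 lay at -662 and the others at 97 to 140. For miR-52 the lowest LS292 centrifuge spot lay at -705 and the others at 35 to 52. The part of these spots was not tested.

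The medians of miR-237, of the lin-4 family of developmental timing miRNAs, were 102.5 in LS292 and 69 in N2 in static flight, 53.5 and 109 in the centrifuge, 38.5 and 43.5 on the ground, and 41.5 and 56.5 without transport. Those of miR-796 were 39 and 23, 36.5 and 32, 26.5 and 60.5, and 19.5 and 56.5. LS292 was the higher for miR-796 in both flight conditions, where all its medians lay under 50, and the lower in both controls. It passed the filter through the N2 arrays of these controls alone. Its direction there was in part fixed by the filter, and nothing is read from it.

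The medians of miR-255 were 21 in LS292 and -83 in N2 in static flight, 81 and 66.5 in the centrifuge, -44.5 and 56 on the ground, and 58 and 39.5 without transport. Those of miR-1824 were 23.5 and 44.5, 30 and 52.5, 26.5 and 18.5, and 54.5 and 63. A value below 0 means that the spots were dimmer than the glass around them, so no ratio can be given for miR-255 in static flight or on the ground.

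Within single conditions, folds were taken from the authors' normalized values among miRNAs at 50 or more in both strains. With 1 array on each side such a fold has no replicate check. In static flight 1 of 9 miRNAs was at least 2-fold higher in LS292 (11.1%, miR-84 at a ratio of 2.17) and 1 lower (11.1%, miR-230 at 0.452). In the centrifuge 2 of 12 were higher (16.7%, miR-73 at 8.68 and miR-1823 at 2.87) and 2 lower (16.7%, miR-237 and miR-56). The spots of miR-73, miR-237 and miR-56 overlapped between the strains there. On the ground 1 of 11 was higher (9.09%, miR-257 at 2.16) and 2 lower (18.2%, miR-258 at 0.237 and miR-1823 at 0.405). Without transport 0 of 12 were higher (0%) and 4 lower (33.3%, miR-230 at 0.180, miR-257 at 0.368, miR-55 at 0.463 and miR-787). Of the miRNAs named outside the centrifuge, spots stood apart between the strains only for miR-230, in both its conditions, and for miR-55.

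These counts depended on the scale. The authors divided by a constant per array, which was 175 for LS292 and 128 for N2 without transport, a shift of 0.45 log2 between them. Without any scaling, 1 miRNA was higher and 2 were lower without transport, and 0 were higher on the ground. With arrays scaled to the median intensity of the bright unnamed probes, 0 were higher and 3 lower in static flight, and 1 was higher and 2 lower without transport. In static flight these medians were 486.75 in LS292 and 275 in N2, a larger shift than the probes' median log2 ratio of 0.57. Counts with arrays scaled by that smaller ratio were not taken.

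By the authors' values, 4 of the 44 pairs were at least 2-fold higher and 9 lower in LS292. No miRNA was 2-fold higher in more than 1 condition, and miR-230 was the only one 2-fold lower in 2 of them. The miRNA miR-1823 changed direction past that fold between the centrifuge and the ground, also without scaling (log2 ratios of 1.76 and -1.55) and with scaling to the unnamed probes (1.72 and -1.26). By the authors' values miR-257 did so between the ground and no transport, but without scaling its log2 ratios of 0.86 and -0.99 did not reach that fold.

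The spots of the strains did not overlap for 3 of the 20 miRNAs in static flight (15%), 1 in the centrifuge (5%), 1 on the ground (5%) and 2 without transport (10%). Of these 7, LS292 was above N2 for miR-124 and miR-787 in static flight and for miR-1823 in the centrifuge. N2 was above LS292 for miR-230 in static flight and without transport, for miR-796 on the ground and for miR-55 without transport. The case of miR-796 was in part fixed by the filter, which it passed through N2 arrays alone. The 4 spots share 1 array and 1 RNA sample, so this describes the arrays and not the strains. Among the 392 unnamed probes past the filter, LS292 was above for 56 and N2 for 1 in static flight, and the counts were 45 and 19 in the centrifuge, 6 and 70 on the ground, and 4 and 23 without transport.

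The series also asked whether the mutation alters the response to flight, which is the strain difference in the 2 flight conditions less that in the 2 controls. The limma fit with this term called 0 of 20 miRNAs (0%) at an adjusted p under 0.05, with 3 at an unadjusted p under 0.05 and a lowest adjusted p of 0.224. The 3 were let-7 at -0.65 log2 (SE 0.20), miR-81 at -0.65 (SE 0.25) and miR-1823 at 0.60 (SE 0.23), each with a limma adjusted p of 0.224. The value of let-7 turned positive, to 0.08 log2, when arrays were scaled by their median in place of quantiles, and its deposited intensities differed by 205.5 and 176 in flight and by 46.5 and 210 in the controls. It was -0.20 log2 by the median of spots and -0.25 log2 with high-background spots dropped. The value of miR-1823 was positive under every one of the 17 alternatives run, at 0.38 to 1.85 log2. The changes of filter and of prior gave 0.60 again by construction, so these alternatives could not turn the sign. With no pair left out, the limma adjusted p of miR-1823 ran from 0.0903 to 0.807.

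The authors' deposited table holds a column of ratios of LS292 over N2 for each condition, and for static flight its denominator is not the N2 static array. All 1364 values of that column equal LS292 static flight over N2 in the 1g centrifuge, and 0 of 958 equal the ratio within static flight, at a relative tolerance of 1e-05. The columns for the centrifuge, the ground and no transport equal the ratios within their conditions for 100% of values. The static column therefore differs in strain and in gravity and dose at once.

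Of 16 detected miRNAs that have both ratios, 6 lay on the other side of 1 when the N2 static array was the denominator. The authors' deposited table gives 1.15 for miR-230 and 2.20 for miR-257, while the ratios within static flight were 0.452 and 0.892. It gives 1.91 for miR-795 and 1.28 for miR-52, against 0.184 and 0.957. It gives 0.953 for miR-788 and 0.951 for miR-799, against 1.36 and 1.43. For let-7 both lay above 1, at 1.41 in the authors' deposited table and 1.63 within static flight.

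**Figure D4:**
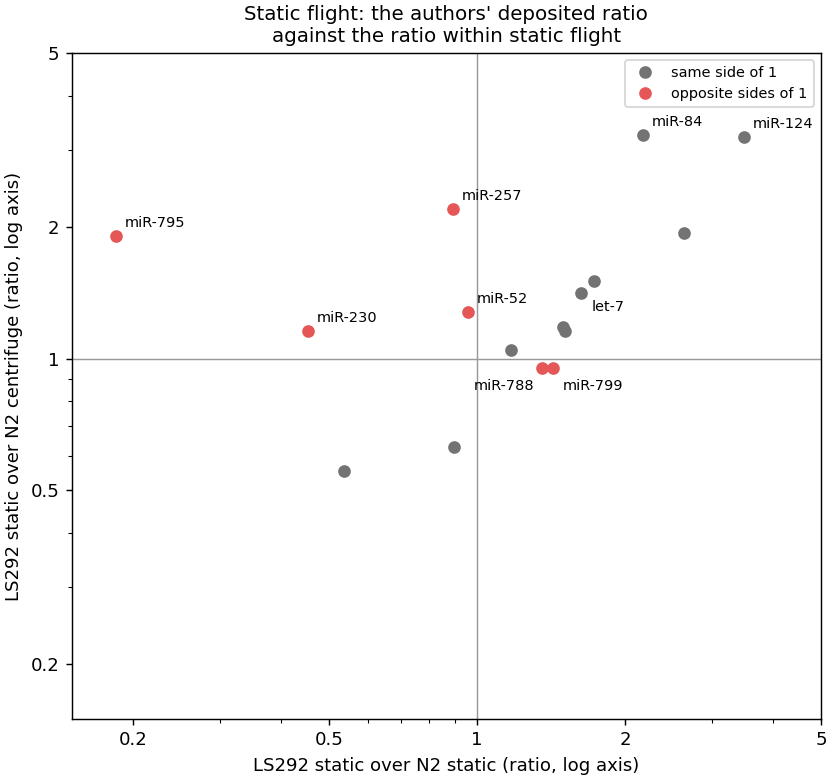
Ratio of LS292 to N2 in static flight for 16 detected miRNAs on log axes, with the ratio within static flight across and the authors' deposited ratio, whose denominator is the N2 centrifuge array, upwards. The 6 red points lie on opposite sides of 1 by the different denominators, with miR-795 at 0.184 against 1.91 the farthest apart.

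The groups of related or tissue miRNAs held few detected members, and none was called. In the let-7 family 3 of 7 members passed the filter, 2 with positive and 1 with negative fitted differences and a median of 0.06 log2, beside -0.018 for all 20. In the miR-51 family 3 of 6 passed, all 3 negative with a median of -0.04 log2. The lin-4 family had 1 of 2 members past the filter, the miR-58 family 1 of 4 and the miR-72 family 1 of 3.

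Muscle is the tissue in which dystrophin is best known, and its miRNA miR-1 stayed at or below 11.5 on all N2 and 9 on all LS292 arrays, under the minimum of 50. The intestinal miR-60 stayed at or below 0.5 and 6. Of 3 neuronal miRNAs, miR-124 alone passed the filter, at 0.11 log2. Of 7 miRNAs tied to stress and lifespan 0 passed, with highest medians of 39.5 in N2 and 17 in LS292, and of 8 embryonic miRNAs of the miR-35 family 0 passed, with 48 and 58. Of 4 miRNAs tied to diapause and quiescence, miR-81 alone passed. A level under the minimum is not shown to be absent from the worms.

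Across the 20 miRNAs, arrays of one condition and different strains correlated at Pearson r of 0.65 to 0.81 (4 pairs, median 0.68) on the normalized scale. Arrays of one strain in different conditions correlated at 0.45 to 0.87 (12 pairs, median 0.54), and arrays that shared neither strain nor condition at 0.13 to 0.92 (12 pairs, median 0.70). These points share probes and array brightness, and miRNAs are not independent replicates. The strain differences of the 20 miRNAs in one condition correlated with those in another at -0.49, for static flight and ground, to 0.25, for static flight and no transport.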

How the data were processed

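Per the labels, 1 ug of total RNA from each sample was labelled with Hy3 and hybridised to a 1-colour miRCURY array. For each spot, 4 per probe, the deposited files give an intensity before and after subtraction of local background, per the file headers. How the images were scanned is not given in the sources used here. The authors' deposited ratio values are each probe's median intensity divided by 1 constant per array, found from the values (128 to 294), and their fold columns are ratios of these. The constant equalled the median intensity of the 5 named miRNAs bright on every array.

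Here the normexp method of limma (offset 50) corrected the background, the mean log2 of a probe's 4 spots was taken, and quantile normalization ran over the 156 named miRNAs. The 20 past the filter were fitted with limma 3.58.1 in R 4.3.3 (condition and strain as terms, 3 residual degrees of freedom, Benjamini-Hochberg adjustment over the 20, threshold 0.05). The script was tested on simulated data. The flight term left 2 residual degrees of freedom. Single values were tested by exact permutation within conditions. Names stand as deposited, and 19 of 20 matched RefSeq gene symbols, all but miR-258.

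Named in full were miRNAs at 50 on all 8 arrays, those with 1 sign in all 4 conditions on the normalized scale, of which there were 0, and the 3 largest fitted differences in each direction. The arrays' comparison, lists and rules were chosen with earlier results of these data known. Values from single conditions, the choice of miR-230 and miR-795 by their deposited medians and the 3 miRNAs of the flight term were described after their values were seen. Alternatives covered background, offset, spot summary, scaling, filter, prior and each pair left out.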

Additional observations from a re-analysis of the deposited data

Results flagged for a closer look

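Of the 2145 probe identifiers to which the deposited tables give no name, 158 reached an intensity of 50 on all 8 arrays, against 5 of the 156 named miRNAs. What these probes detect was not analysed here, and they entered the comparison of the strains only as a measure of array brightness. LS292 was the brighter of the pair for 84.8% of them in static flight, 61.4% in the centrifuge, 31.0% on the ground and 37.3% without transport.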

How the results depend on the processing

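The strain fit called 0 miRNAs under all 18 alternatives, with a lowest limma adjusted p of 0.210 and at most 12 probes of 412 at an unadjusted p under 0.05. The flight term called 0 except with a trended robust prior, which called 1, let-7 at -0.65 log2 (limma adjusted p = 0.0112). The number of miRNAs with one sign in all 4 conditions, 0 as reported, was 3 by the median of each 4 spots, 1 when spots of high background were dropped, 7 with median scaling, 5 with no normalization between arrays, 3 with the authors' values, 3 with scaled spot medians, 7 of 156 with no filter and 28 of 412 with unnamed probes included. It was 4 with arrays scaled to the bright unnamed probes, an alternative chosen after seeing the data, and 0 to 5 with 1 pair left out, when 3 conditions have to match. The authors' values and the scaled spot medians divide each array by the same median, up to a common factor, so they are not separate scalings. The cause of these shifts was not tested.

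The fitted differences of let-7 (0.13 to 0.57 log2), miR-55 (-0.43 to -0.02), miR-230 (-1.35 to -0.13) and miR-73 (0.05 to 0.59) kept their sign under every alternative run. A changed filter or prior, or a fit without the condition term, gave the reported estimates by construction and could not turn a sign. That of miR-258 turned to 0.78 with background subtraction, 0.039 with scaled spot medians and 0.11 with scaling to unnamed probes, and ran from -0.33 to 0.087 with 1 pair left out. That of miR-257 turned to 0.093 without high-background spots, 0.18 with median scaling and 0.11 with no normalization. That of miR-81 turned to -0.00056 without high-background spots. That of miR-84 turned to -0.036 with median scaling and -0.11 with no normalization, and ran from -0.027 to 0.21 with 1 pair left out, and that of miR-1823 from -0.011 to 0.28. In the flight term let-7 turned to 0.084 with median scaling and 0.16 with no normalization, and miR-81 to 0.083 with the authors' values. That value of miR-81 rests on the centrifuge and ground pairs alone. The authors' values of miR-81 are missing for LS292 in static flight and for N2 without transport. The causes were not tested.

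The difference in detected miRNAs per array was -7.75 at a minimum of 25 (exact permutation p = 0.375), -1 at 100 (p = 0.625 by the same exact test) and -0.75 by the mean of spots (exact p = 1). At 25 the pair differences had an SD of 13.2. They were 3 in static flight, -4 in the centrifuge, -3 on the ground and -27 without transport. Leaving out 1 array gives, by construction of the fit, the same strain estimate as leaving out its pair. With 1 array per strain and condition, strain and array cannot be told apart within a condition, and most named probes lay near background.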
